A study of Mus musculus with 16 samples.

Results

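In brains of newborn mice with a single working copy of the connexin 43 gene, each transcript was compared with Cx43 null and wild-type brain. The question was whether the heterozygous level lay midway between them on the log scale. A gene dose that adds on the unlogged scale would place it above this log midpoint, so the midpoint is a convention. The departure of a transcript is the mean of the Cx43 heterozygous arrays minus the midpoint of the Cx43 null and wild-type means, so a positive departure means a heterozygous level above the midpoint. The comparison used 12 of the 16 arrays of the study, 4 for each genotype, and 15085 transcripts: 8992 genes with a symbol and 6093 spots that no single symbol could be given. The groups were neonatal C57BL Cx43 heterozygous mice, neonatal C57BL Cx43 null mice and neonatal C57BL/6j wild-type mice. The remaining 4 arrays held brain of neonatal C57BL Cx32 null mice, which lack connexin 32 and are set beside the others as levels only. Each array carried brain cDNA with Cy3 beside a Cy5 reference made from a pool of adult C57BL tissues of both sexes, among them aorta, brain, heart, kidney, liver, lung, gonads, spleen and stomach. The labels of wild-type replicates 3 and 4 give the dye of the reference only, and the title of wild-type replicate 3, which was followed, bears another number than its channel label. Neither the alleles, nor whether mice of different genotypes were littermates, nor whether a sample was a single animal or a pool is stated, so the p-values rest on the spread among arrays, which may be technical.

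Connexin 43, encoded by Gja1, forms gap junction channels through which astrocytes, and before birth radial glia, exchange ions and small metabolites. It also forms hemichannels to the extracellular space and binds adhesion and cytoskeletal proteins at the cell edge. A heterozygote of such a gene can lie between the homozygotes, resemble either of them, or lie outside both, and each of these outcomes was looked for here.

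All values are log2 ratios of brain to reference, centred on the median of their array. Log base and numerator are not in the labels, so each fold assumes log2 and each direction assumes that brain is the numerator. The 10 measured neuron markers had array medians of 1.53 to 2.12 in heterozygous, 1.80 to 2.18 in null and 1.79 to 2.43 in wild-type brain, whereas 14 markers of the adult reference tissues had medians of -5.20 to -4.30, -4.86 to -3.89 and -3.68 to -2.93 on the same arrays. An array gave values for 21293 to 24819 spots. Because the arrays measure whole brain, fewer cells of a type and less RNA per cell cannot be told apart.

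Some arrays stood apart from their group. Across transcripts, Cx43 null replicate 1 correlated on average with r = 0.79 with the heterozygous arrays, 0.85 with the other null arrays and 0.84 with the wild-type arrays, whereas the other null arrays had 0.83 to 0.88 with the heterozygous and 0.66 to 0.79 with the wild-type arrays. Null replicate 1 was thus about as close to wild type as to its own group. Wild-type replicate 1 had 0.71 with the other wild-type arrays. Wild-type replicate 4 had 0.84 with the null arrays and 0.80 with the other wild-type arrays, and null replicate 4 had 0.88 with the heterozygous and 0.88 with the other null arrays. Wild-type replicate 4 also had the most windows of consecutive table rows that ran out of step with the other arrays, 14 of 574. The counts of calls and of class members are also given without replicates 1 of null and wild-type brain, and several of them without each other array. The replicate SD, as a median over transcripts, was 0.20 in heterozygous, 0.27 in null and 0.38 in wild-type brain, and the fit gives the 3 genotypes a common spread per transcript. Each genotype was present only as its own arrays, so genotype and anything else that the arrays of a genotype share cannot be told apart.

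Gja1 itself did not lie at the midpoint. Its log2 ratio was -1.09, -1.27, -1.25 and -1.86 on the heterozygous arrays, -0.60, -1.71, -2.10 and -2.92 on the null arrays, and 2.47, 1.13, 1.48 and 1.17 on the wild-type arrays. Every heterozygous array lay inside the range of the null arrays and below every wild-type array. The departure was -1.23 ± 0.35 (SE, 95% interval -1.99 to -0.47, adjusted p = 0.0375), with means of -1.36 ± 0.34, -1.83 ± 0.96 and 1.56 ± 0.63 (SD, n = 4 each) in heterozygous, null and wild-type brain. The heterozygous mean exceeded the null mean by 0.47 (95% interval -0.41 to 1.34), an interval too wide to call the genotypes alike. The departure passed in 7 of the 12 fits that leave out an array. On the Cx32 null arrays, Gja1 had 0.13, 0.10, -0.07 and 0.27, between the heterozygous and wild-type arrays. A single spot read Gja1, and the sources used here do not say whether it lies in the deleted stretch.

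Over all transcripts, the departure passed in 1770 of 15085, or 11.7% (limma, Benjamini-Hochberg adjusted p under 0.05). Heterozygous brain lay above the midpoint in 723 of them (4.79%) and below it in 1047 (6.94%), and 1033 of the 1770 are named genes. At an unadjusted p under 0.05 there were 4403. The share of calls above the midpoint was 40.8%, against 73.0% with values as deposited, 48.7% with quantile scaling and 51.5% with cyclic loess, so the balance of directions rests on the scaling. Values as deposited moved the median departure to 0.15, against -0.02 after centring. Without wild-type replicate 1 the count was 2523, and without Cx43 null replicate 1 it was 1274. It was 891, 920, 792 and 870 without heterozygous replicates 1 to 4, and 1128 without Cx43 null replicate 2.

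A called departure was nearly always a heterozygous mean outside both homozygous means, rather than a mean between them that leaned to a side. This held for 1768 of the 1770 calls, and 72.2% of all transcripts tested had such a mean. The 2 calls with a mean between the homozygotes were Gja1 and Efnb2, which encodes the axon guidance ligand ephrin B2. The only spot of Efnb2 lay in a window of table rows out of step, and its heterozygous mean lay 0.02 above the null mean. With such windows left out, 1793 of 1794 calls lay outside both homozygous means. In 1554 of the 1770 calls (87.8%) the nearer homozygote was null, and in 214 (12.1%) it was wild type. The share of all transcripts with null as the nearer homozygote was not counted, so these shares describe the calls without a background. Without Cx43 null replicate 1, 98.9% of calls lay outside and 88.1% were nearest to null. With wild-type replicate 1 and Cx43 null replicate 1 both left out, these shares were 98.0% and 84.8%.

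Against the homozygotes in turn, heterozygous brain differed from null brain in 169 transcripts (1.12%), 104 higher (0.689%) and 65 lower (0.431%). It differed from wild-type brain in 3929 transcripts (26.0%), of which 1731 were higher (11.5%) and 2198 lower (14.6%). Null and wild-type brain differed in 311 transcripts (2.06%), 68 higher (0.451%) and 243 lower (1.61%). These 3 contrasts share arrays in pairs. Of the departure calls, 159 (9.0%) also differed from both homozygotes and 1537 (86.8%) differed from wild type but did not pass against null. The plot of both differences shows these groups of transcripts.

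**Figure D1:**
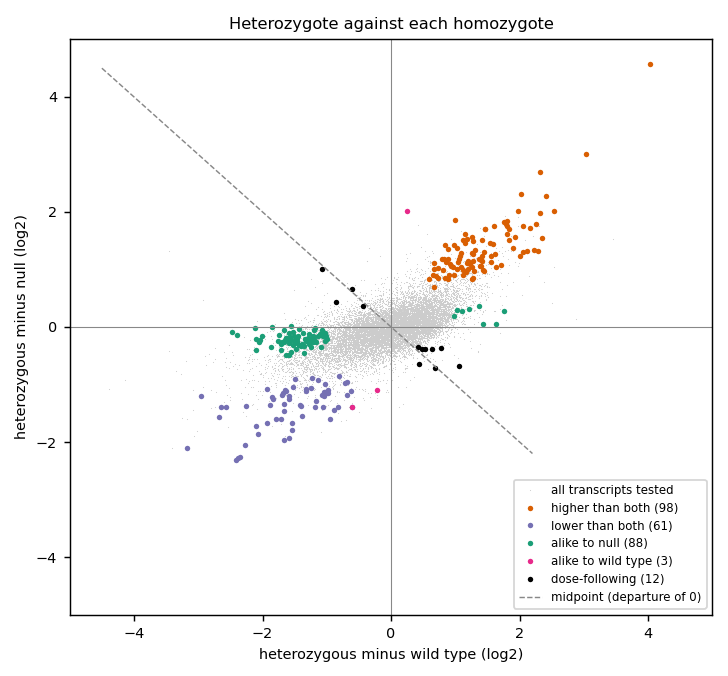
Heterozygous minus wild-type level (x axis, log2) against heterozygous minus null level (y axis, log2), a point per transcript, with the classes of transcripts coloured and the line on which the heterozygote sits at the midpoint. Transcripts extreme in the heterozygote lie in the upper right and lower left, with Cypt12 at 4.03 and 4.57, and transcripts alike to null lie along y near 0.

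The 4 heterozygous arrays lay above all 8 homozygous arrays in 527 transcripts (3.49%) and below all 8 in 574 (3.81%). The stricter class called extreme needs a passed difference from both homozygotes in the same direction. It held 98 transcripts that were higher in heterozygous brain than in either homozygote (0.650%; 42 named genes) and 61 that were lower (0.404%; 32 named genes).

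Of the 42 named genes extreme upwards, the 12 without overlap that lay farthest from the nearer homozygote are given by role, first 3 that are known from germ cells. Lack of overlap was a condition of this choice, so it is no support for a gene. Cypt12, a cysteine-rich protein of the perinuclear theca of mouse spermatids, had log2 ratios of -1.14, -0.88, -1.25 and -0.93 in heterozygous brain, against -6.59, -4.27 and -6.01 in null brain (no value on replicate 1) and -5.09, -5.63, -4.44 and -5.19 in wild-type brain. All heterozygous arrays lay more than 3 log2 units above every other array of the comparison, and all were still below 0, the median of their array, for a gene of the testis, a tissue that the reference pool held. Its departure was 4.30 ± 0.35 (SE, adjusted p = 0.000159), and its heterozygous mean was 23.8-fold above null and 16.4-fold above wild type. Ubl4b, a ubiquitin-like protein of testis, had 0.01, -1.25, -0.76 and -0.21 in heterozygous brain, -2.97, -3.54, -3.07 and -1.76 in null brain and -2.63, -2.89, -3.32 and -3.03 in wild-type brain. No null or wild-type array reached the lowest heterozygous array. Its departure was 2.35 ± 0.30 (SE, adjusted p = 0.000761). Meioc, which sustains meiosis in germ cells, had -0.43, -0.44, -0.44 and -0.31 in heterozygous brain, -2.38, -1.78 and -2.15 in null brain and -1.85, -2.09, -1.73 and -1.77 in wild-type brain (departure 1.58 ± 0.16, adjusted p = 0.000244).

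Another 2 of the 12 encode receptors. Aplnr, the receptor of the peptide apelin, had 0.84, 1.18, 0.73 and 1.34 in heterozygous brain, against -0.83, -0.63, -1.26 and -0.32 in null brain and -0.74, -0.75 and -0.79 in wild-type brain. The null and wild-type arrays lay together below 0 and the heterozygous arrays above it. The departure was 1.79 ± 0.20 (SE, adjusted p = 0.000375), and the heterozygous mean was 3.45-fold above null and 3.44-fold above wild type. Adgrg6, an adhesion receptor that Schwann cells need to myelinate, had 1.23, 0.38, 0.96 and 0.07 in heterozygous brain, -0.88, -0.94, -1.20 and -1.38 in null brain and -0.82, -1.0, -1.38 and -0.56 in wild-type brain. Its heterozygous arrays spread over more than a log2 unit (departure 1.68 ± 0.23, adjusted p = 0.000967).

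Cyp11b1, the steroid 11-beta-hydroxylase known from the adrenal cortex, had 1.53, 1.10 and 1.50 in heterozygous brain, -0.58, -1.08, -0.46 and -0.41 in null brain and -1.52, -0.99 and -0.99 in wild-type brain. Both homozygotes lay below 0 on every array with a value and the heterozygote above it, with a departure of 2.28 ± 0.21 (SE, adjusted p = 0.000244). Klhl14, a member of the kelch-like family, had 1.67, 1.04, 0.85 and 1.80 in heterozygous brain, -0.07, 0.02, -0.32 and -0.15 in null brain and -0.79, 0.01, 0.10 and -0.09 in wild-type brain. Its departure was 1.50 ± 0.22 (adjusted p = 0.00136). Nexmif, a factor of neurite extension and neuron migration, and Cdh18, a cadherin of the nervous system, had heterozygous means above both homozygotes with departures of 1.95 and 1.64, but kept the class in only 6 and 2 of the 12 fits that leave out an array. E130112N10Rik, Btbd11 and Cdhr5, a cadherin of the intestinal brush border, complete these 12 genes, with departures of 1.99, 1.75 and 1.58.

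Over the 98 transcripts the departure ran from 0.68 to 4.30 with a median of 1.28, and the median level was 1.10 in heterozygous, -0.19 in null and -0.18 in wild-type brain. In 94 of them no heterozygous array overlapped the null or wild-type arrays. The class was kept by 21 in all 12 fits that leave out an array, by 40 without Cx43 null replicate 1, by 97 without wild-type replicate 1 and by 86 without both of these arrays. The number of transcripts in the class was 43, 47, 54 and 56 without heterozygous replicates 1 to 4, 40, 25, 40 and 57 without Cx43 null replicates 1 to 4, and 186 and 61 without wild-type replicates 1 and 2. All 12 values were present for 46 of the 98, against 11071 of all 15085 transcripts.

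**Figure D2:**
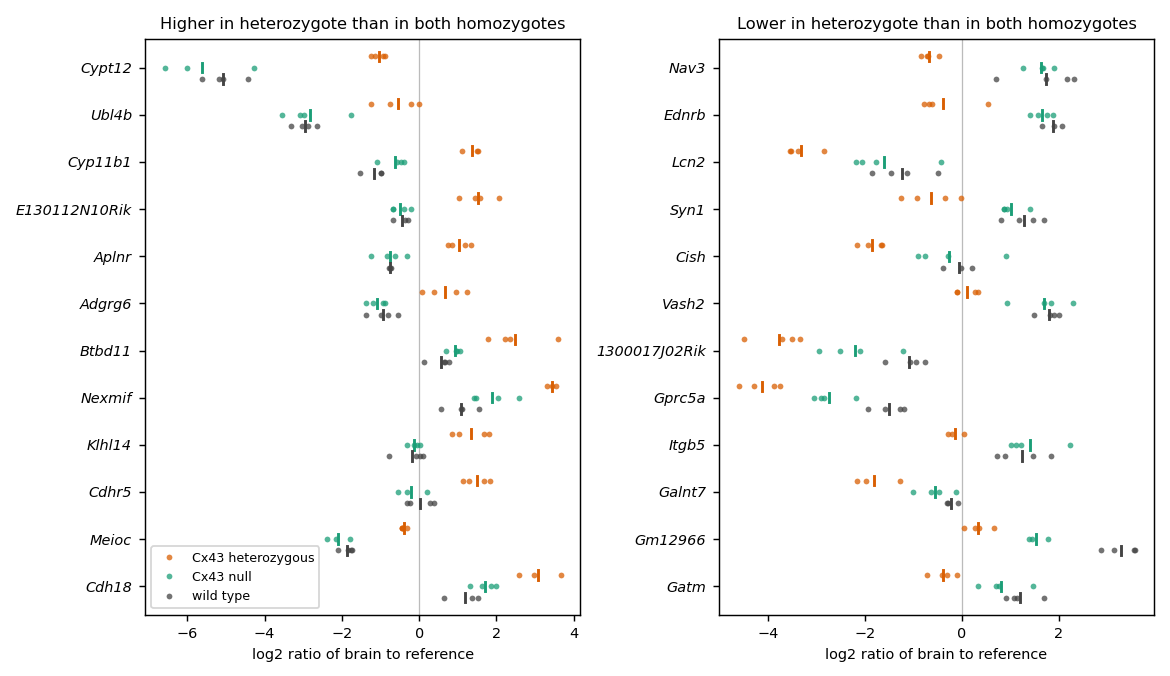
Centred log2 ratio of brain to reference on each array for named genes extreme in the heterozygote, with heterozygous, null and wild-type arrays as separate points and bars at the group means. Cypt12 sits between -1.25 and -0.88 on the heterozygous arrays and at or below -4.27 on all others, and Nav3 sits at or below -0.47 on the heterozygous arrays and at or above 0.70 on all others.

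Of the 32 named genes extreme downwards, 12 were taken by the same rank, again only from genes without overlap, and 2 of these are known from neurons. Nav3, the axon-associated protein neuron navigator 3, had -0.85, -0.70, -0.47 and -0.72 in heterozygous brain, against 1.66, 1.68, 1.27 and 1.91 in null brain and 0.70, 2.32, 2.17 and 1.73 in wild-type brain. The heterozygous arrays alone lay below 0. Its departure was -2.37 ± 0.25 (SE, adjusted p = 0.000244), and its heterozygous mean was 4.98-fold below null and 5.34-fold below wild type. Syn1, the synaptic vesicle protein synapsin I, had -0.35, -0.03, -1.27 and -0.93 in heterozygous brain, 1.41, 0.94, 0.88 and 0.87 in null brain and 1.48, 1.69, 0.82 and 1.17 in wild-type brain. Both homozygotes overlapped each other above 0, and no heterozygous array reached them (departure -1.80 ± 0.24, adjusted p = 0.000843).

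Ednrb, the endothelin B receptor, which astrocytes carry, had -0.68, -0.79, -0.62 and 0.54 in heterozygous brain, against 1.57, 1.77, 1.41 and 1.88 in null brain and 2.08, 1.91 and 1.65 in wild-type brain. Heterozygous replicate 4 stood above the other heterozygous arrays and still below every homozygous array. The departure was -2.16 ± 0.24 (SE, adjusted p = 0.000417), and the heterozygous mean was 4.13-fold below null and 4.82-fold below wild type. Vash2, vasohibin 2, an enzyme that removes the terminal tyrosine of alpha-tubulin, had -0.09, 0.33, 0.26 and -0.11 in heterozygous brain, 1.83, 2.29, 0.93 and 1.70 in null brain and 2.00, 1.81, 1.91 and 1.50 in wild-type brain (departure -1.65 ± 0.22, adjusted p = 0.00093). Lcn2, the secreted iron-siderophore binder lipocalin 2, had -3.54, -3.56, -3.39 and -2.86 in heterozygous brain, -0.44, -2.18, -2.06 and -1.78 in null brain and -0.49, -1.13, -1.46 and -1.85 in wild-type brain. Null replicate 1 was highest for Lcn2, and the departure of -1.91 ± 0.31 (adjusted p = 0.00297) was -1.72 without it (adjusted p = 0.0019), though the class was then lost.

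Gatm, which makes the creatine precursor guanidinoacetate, had -0.72, -0.30, -0.10 and -0.42 in heterozygous brain, 1.46, 0.76, 0.33 and 0.70 in null brain and 1.70, 1.15, 1.08 and 0.91 in wild-type brain. The gap to the nearest homozygous array was small and the class was kept in 4 of the 12 fits that leave out an array (departure -1.39 ± 0.22, adjusted p = 0.00217). The other genes among these 12 were Cish, an inhibitor of cytokine signalling, Gprc5a, an orphan receptor induced by retinoic acid, Itgb5, the integrin beta 5 subunit, Galnt7, an enzyme of O-glycosylation, 1300017J02Rik and Gm12966. Their departures lay between -2.12 and -1.42, and the class was kept in 2 to 8 of those 12 fits.

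Over the 61 transcripts the median departure was -1.39, in a range of -2.64 to -0.82, and the median level was -1.06 in heterozygous, 0.22 in null and 0.20 in wild-type brain. In 60 of them no heterozygous array overlapped the null or wild-type arrays. Of the 61, 16 kept the class in all 12 fits that leave out an array, 30 without Cx43 null replicate 1, all 61 without wild-type replicate 1 and 54 without both. The size of the class was 32, 29, 24 and 29 without heterozygous replicates 1 to 4, 30, 20 and 34 without Cx43 null replicates 1 to 3, and 147 and 38 without wild-type replicates 1 and 2. Ubl4b, Klhl14, Nav3, Syn1 and Vash2 kept their class in all 23 alternatives that were run on named genes, and Cypt12, Aplnr, Cyp11b1, Meioc and Ednrb in 22, since each lacks a value that the strictest filter requires.

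The Cx32 null arrays were not used to define either extreme class. Of the 98 transcripts extreme upwards 67 were measured there, and in 48 the heterozygous arrays lay above all 4 Cx32 null arrays, beside 783 of 14299 transcripts (5.48%) overall. The difference passed upwards in 38 of the 67, beside 146 overall (1.02%). Of the 61 transcripts extreme downwards 57 were measured, and in 33 the heterozygous arrays lay below all 4 Cx32 null arrays, beside 1225 overall (8.57%). The difference passed downwards in 26 of the 57, beside 55 overall (0.385%). The heterozygous arrays serve both the definition and this comparison, so these shares are descriptions. Nav3 had 1.55, 2.08, 1.88 and 1.68 on the Cx32 null arrays, Ednrb 1.61, 1.80, 1.78 and 1.66, and Vash2 2.14, 1.97, 2.13 and 2.37, levels that overlapped those of both homozygotes for Nav3 and Ednrb and lay at or above most of them for Vash2. For Cdh18 and Cdhr5, in contrast, the Cx32 null arrays lay at 2.52 to 3.44 and at 1.41 to 1.86, overlapping the heterozygous values. Downwards, the Cx32 null means of 1300017J02Rik and Gm12966, -3.31 and 0.66, lay near the heterozygous means of -3.77 and 0.33. The Cx43 null means of these genes were -2.20 and 1.54.

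Promoters of these genes are shown for their CpG content, which tends to be higher at promoters of housekeeping genes than at those of tissue-restricted genes. The sequences are the 250 bases before the annotated start, from RefSeq on GRCm38.p6, with each CG pair in capitals: Cypt12 at chr3:17948194-17948443 (plus strand), Ubl4b at chr3:107555074-107555323 (minus strand), Ednrb at chr14:103843702-103843951 (minus strand) and Lcn2 at chr2:32387740-32387989 (minus strand).
Cypt12: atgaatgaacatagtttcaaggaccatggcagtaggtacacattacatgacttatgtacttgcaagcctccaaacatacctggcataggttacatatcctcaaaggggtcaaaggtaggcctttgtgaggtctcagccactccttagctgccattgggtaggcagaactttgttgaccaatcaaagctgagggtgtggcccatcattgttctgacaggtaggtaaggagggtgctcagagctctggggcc
Ubl4b: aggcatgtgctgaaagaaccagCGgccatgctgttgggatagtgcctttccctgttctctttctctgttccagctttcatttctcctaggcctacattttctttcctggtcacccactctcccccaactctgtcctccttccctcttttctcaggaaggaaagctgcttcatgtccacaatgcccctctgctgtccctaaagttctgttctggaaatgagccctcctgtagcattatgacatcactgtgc
Ednrb: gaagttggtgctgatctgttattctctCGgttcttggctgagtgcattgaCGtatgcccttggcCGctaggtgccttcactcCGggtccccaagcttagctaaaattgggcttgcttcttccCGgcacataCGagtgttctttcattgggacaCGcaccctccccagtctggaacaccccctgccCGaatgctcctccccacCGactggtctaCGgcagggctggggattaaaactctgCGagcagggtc
Lcn2: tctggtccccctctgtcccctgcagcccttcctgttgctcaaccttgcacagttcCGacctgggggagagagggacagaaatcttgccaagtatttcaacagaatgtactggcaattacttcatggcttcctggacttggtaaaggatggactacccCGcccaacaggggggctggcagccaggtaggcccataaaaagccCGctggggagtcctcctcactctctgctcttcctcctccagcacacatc

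The stretches shown of these 4 promoters held 0, 1, 11 and 3 CG pairs. The medians and shares given next were counted on the promoter sequences without cutting them to the stretch shown. The 4 counts can therefore not be compared with those medians. Among the genes extreme upwards with a promoter sequence (31 of 42) the median was 9 CG pairs and 56.7% G or C, among those extreme downwards (24 of 32) 18 pairs and 60.2%, and among all named genes tested (7180 of 8992) 21 pairs and 60.7%. Searched on both strands, the letters GGGCGG, the core bound by Sp1, were found in 12 of 31 promoters upwards (38.71%), 12 of 24 downwards and 63.29% of all. CCAAT was found in 35.48%, 54.17% and 38.30%, and TATAAA in 6.45%, 4.17% and 7.59%. A match is a run of letters in the promoter sequence and no evidence of binding, and these shares were not tested.

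Of the 311 transcripts that differed between null and wild-type brain, most had a heterozygous level near null. With wild type set at 0% and null at 100%, the median heterozygous position was 108.7% (quartiles 90.6% and 126.7%). The position lay from 75% to 125% for 191 transcripts, above 125% for 82, from 25% to 75%, around the midpoint, for 32, from 0% to 25% for 3 and below 0% for 3. The departure passed for 167, toward null in 164 and toward wild type in 3, and did not pass for 144. Choosing transcripts for a difference between null and wild-type brain uses arrays that the position also uses. Without Cx43 null replicate 1, 1291 transcripts differed and the median position was 100.6%, and with wild-type replicate 1 left out as well, 1496 differed and it was 102.3%. The number that differed was otherwise 8, 83 and 1896 without wild-type replicates 2 to 4, 139, 35, 135 and 54 without heterozygous replicates 1 to 4, and 28, 2 and 29 without Cx43 null replicates 2 to 4.

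**Figure D3:**
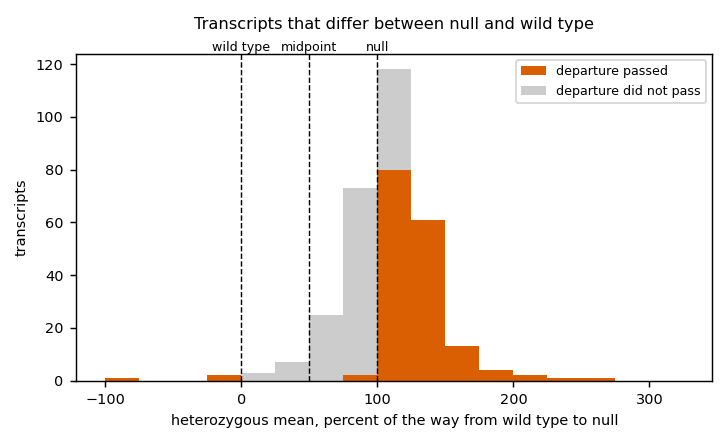
Number of transcripts (y axis) by the position of the heterozygous mean between wild type (0%) and null (100%), for the 311 transcripts that differed between null and wild-type brain. The median is 108.7%, and 32 transcripts lie from 25% to 75%.

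A transcript was called alike to null where null and heterozygous brain both differed from wild type in the same direction, the departure passed toward null, and the 95% interval of heterozygous minus null lay within 1 log2 unit on either side of 0. This class held 88 transcripts (0.583%; 56 named genes), 8 with higher and 80 with lower levels than wild type. Klf9, a transcription factor induced by thyroid hormone and glucocorticoids, had -1.70, -1.73, -2.31 and -1.70 in heterozygous brain, -1.16, -1.90, -1.76 and -1.55 in null brain and 0.65, 0.40, 0.17 and -0.41 in wild-type brain. The heterozygous and null arrays overlapped, and both lay below every wild-type array. Heterozygous minus null was -0.27 (95% interval -0.80 to 0.26), beside 4.17-fold below wild type in heterozygous brain, and the class was kept in 11 of the 12 fits that leave out an array.

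Slc48a1, a transporter of haem out of endosomes, had -0.02, 0.05, -0.09 and -0.14 in heterozygous brain, 0.05, -0.38 and 0.20 in null brain and 1.60, 2.07, 2.18 and 1.35 in wild-type brain. Heterozygous and null brain sat near 0 and wild-type brain above it, with heterozygous minus null at -0.01 (95% interval -0.51 to 0.49). Nfix, a transcription factor of neural progenitors, had 1.44, 1.48, 1.15 and 1.83 in heterozygous brain, 2.15, 1.65, 0.96 and 1.70 in null brain and 3.79, 3.24, 3.05 and 2.80 in wild-type brain. Its heterozygous arrays lay within the null range and below every wild-type array (heterozygous minus null -0.14, 95% interval -0.71 to 0.43). Prps1, which makes the ribose donor of nucleotide synthesis, had 0.57, 0.47, 0.37 and 0.24 in heterozygous brain, 1.05, 0.83, -0.16 and 0.15 in null brain and 2.44, 2.09, 1.74 and 2.05 in wild-type brain. Its heterozygous arrays, too, lay within the null range.

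Snrnp200, a helicase of the spliceosome, and Tmbim6, a calcium-channel protein of the endoplasmic reticulum, were the other 2 genes named among those below wild type, with heterozygous levels 4.30-fold and 3.65-fold below it. In the opposite direction, Ccdc184 had 2.11, 2.78, 2.69 and 2.03 in heterozygous brain, 1.87, 1.88, 2.0 and 2.74 in null brain and -0.05, 0.89, 0.54 and 1.20 in wild-type brain. Nln, the peptidase neurolysin, had 0.80, 0.70, 1.30 and 0.90 in heterozygous brain, 0.53, 0.63, 0.93 and 0.16 in null brain and -0.61, -0.16, -0.74 and -0.29 in wild-type brain. In both genes the heterozygous and null arrays overlapped and lay above all wild-type arrays. Atad2b, an ATPase with a bromodomain, and Spats2l also belonged to this group, with heterozygous levels 1.98-fold and 2.05-fold above wild type.

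The class alike to null depended on single arrays. Only 1 of the 88 kept it in all 12 fits that leave out an array, and 17 kept it in at least 6. Its size was 22, 11, 23 and 12 without heterozygous replicates 1 to 4, 265, 10, 1 and 12 without Cx43 null replicates 1 to 4, and 5, 47 and 499 without wild-type replicates 2 to 4. On the Cx32 null arrays these transcripts had a median level of -0.01, beside medians of -0.08 in heterozygous, 0.08 in null and 1.00 in wild-type brain. Klf9 had -2.03, -1.56, -1.75 and -2.25 on the Cx32 null arrays, Nfix 1.52, 1.49, 1.50 and 1.42, and Prps1 0.60, 0.74, 0.46 and 0.20, all below the wild-type arrays. A level shared by heterozygous and null brain against wild type was thus also seen, for these 3 genes, in brain of mice whose label names no change in Cx43. As whole arrays, too, the Cx32 null arrays lay nearer to the Cx43 groups than to wild type. They correlated on average with r = 0.70 to 0.72 with wild-type, 0.83 to 0.90 with heterozygous and 0.83 to 0.87 with null arrays. Why wild-type brain stood apart from the 3 other groups was not tested.

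**Figure D4:**
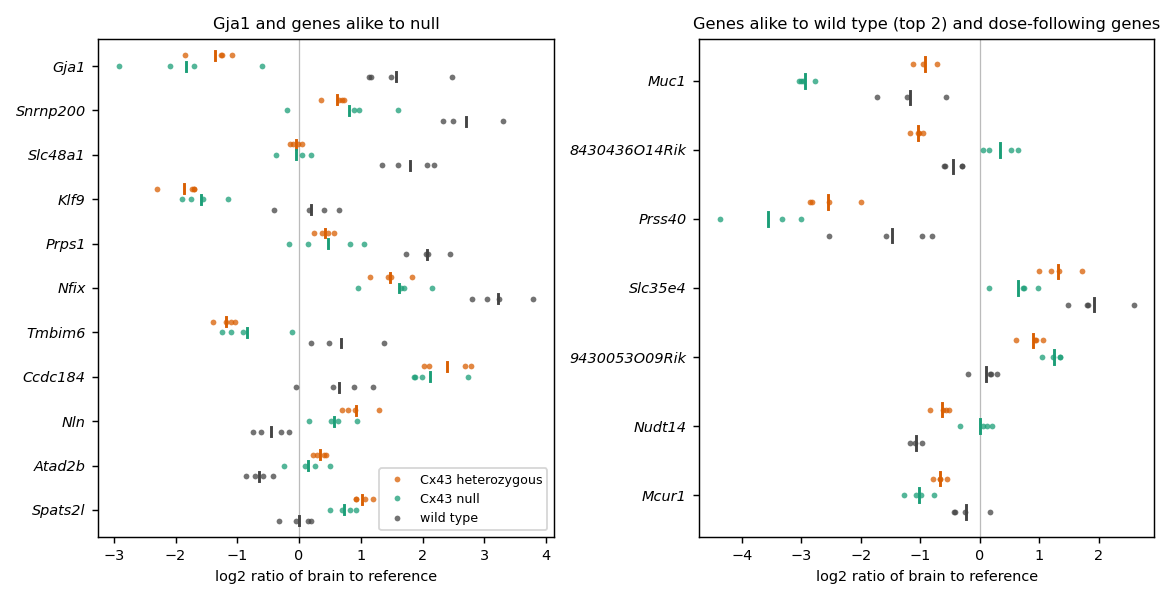
Centred log2 ratio of brain to reference on each array for Gja1 and genes alike to null (left panel) and for genes alike to wild type or dose-following (right panel), with heterozygous, null and wild-type arrays as points and bars at the group means. For Klf9 the heterozygous arrays sit between -2.31 and -1.70 and the null arrays between -1.90 and -1.16, all below the lowest wild-type array at -0.41.

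Only 3 transcripts were alike to wild type (0.0199%). Muc1, a mucin of epithelial surfaces, had -0.72, -0.95 and -1.12 in heterozygous brain, -3.0, -3.04, -2.77 and -2.97 in null brain and -0.58, -1.22 and -1.73 in wild-type brain. The heterozygous arrays lay within the wild-type range, 4.05-fold above null (adjusted p = 0.00315), with a departure of 1.13 ± 0.23 (SE, adjusted p = 0.0109) and heterozygous minus wild type at 0.25 (95% interval -0.34 to 0.84). 8430436O14Rik met this rule and that for genes extreme downwards at once, since its interval against wild type (-0.99 to -0.21) lay within the bound and off 0. The class had 0 to 4 transcripts when an array was left out.

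Of the 311 transcripts that differed between null and wild-type brain, 12 were called dose-following on the log scale (0.0795% of all tested). In these the 95% interval of the departure lay closer to 0 than either homozygote lies to the midpoint. The departure did not pass for 144 of the 311, so missing this rule does not show a break from gene dose. Nudt14, a hydrolase of nucleotide sugars, had -0.58, -0.62, -0.83 and -0.52 in heterozygous brain, 0.05, 0.12, 0.20 and -0.33 in null brain and -1.09, -0.96 and -1.17 in wild-type brain, a ladder without overlap (departure -0.10, 95% interval -0.44 to 0.23). Prss40, a serine protease of mouse testis, had -2.82, -2.86, -2.0 and -2.53 in heterozygous brain, -3.01, -3.32 and -4.37 in null brain and -0.81, -0.97, -1.58 and -2.53 in wild-type brain, in the same order of means but with heterozygous and wild-type arrays overlapping. 9430053O09Rik, Slc35e4, of a family of nucleotide-sugar transporters, and Mcur1, a regulator of the mitochondrial calcium uniporter, were the other named members. None of the 12 kept the class in all 12 fits that leave out an array. The class had 10, 2, 9 and 3 transcripts without heterozygous replicates 1 to 4, 46, 4, 0 and 5 without Cx43 null replicates 1 to 4 and 0, 4 and 44 without wild-type replicates 2 to 4.

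Of the junction genes, 5 connexins and pannexins were measured. Panx1, which forms channels to the extracellular space, was extreme upwards, with 4.43, 2.75, 3.74 and 4.26 in heterozygous brain, 1.96, 2.07, 1.69 and 2.44 in null brain and 2.91, 1.63, 1.83 and 1.61 in wild-type brain. Wild-type replicate 1 overlapped heterozygous replicate 2, and the remaining arrays did not overlap. The departure was 1.78 ± 0.31 (SE, adjusted p = 0.00407), and the class was kept in 6 of the 12 fits that leave out an array, lost without Cx43 null replicate 1, 2 or 3 or heterozygous replicate 1, 3 or 4. Gja4, Gjb5 and Gjc1, connexins known from vessel walls, epithelia and smooth muscle, had departures of 0.30 (95% interval -0.42 to 1.02), 0.04 (-0.43 to 0.52) and 0.46 (0.06 to 0.85), none of which passed after adjustment. Among 20 measured partners of connexin 43, 0 departed upwards and 2 downwards, with a median of -0.20, beside 4.79% of all transcripts called higher and 6.94% called lower. These were Ctnnb1, or beta-catenin, and Ywhab, a 14-3-3 protein. Ctnnb1 had 1.13, 1.67, 1.23 and 1.98 in heterozygous brain, 2.86, 2.60, 1.46 and 2.00 in null brain and 3.84, 3.23, 3.61 and 3.15 in wild-type brain (departure -1.34 ± 0.26, adjusted p = 0.0066). Of 21 genes of adherens and tight junctions, 0 departed upwards and 3 downwards (Ctnnb1, Jup and F11r). Counts this small lie within a call or 2 of the shares over all transcripts. F11r, junctional adhesion molecule A, was extreme, at -2.63, -2.32, -2.80 and -2.48 in heterozygous brain, -1.25, -1.65, -1.13 and -2.05 in null brain and -1.08, -0.84, -1.04 and -1.16 in wild-type brain. It kept the class in 5 of the 12 fits that leave out an array, and lost it without Cx43 null replicate 1, 2 or 3, without any of the heterozygous arrays, with null and wild-type replicates 1 both left out, with values as deposited, with quantile scaling and with a replicate block.

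Several lists of metabolism and protein turnover lay below the midpoint, beside 4.79% of all transcripts called higher, 6.94% called lower and a median departure of -0.02. Of 73 chaperones 0 departed upwards and 12 downwards, with a median of -0.39. Among them Cct6a, a subunit of the cytosolic chaperonin, was extreme, with 0.20, 0.21, 0.19 and 0.28 in heterozygous brain, 1.33, 1.50, 0.86 and 1.75 in null brain and 2.25, 1.85, 1.94 and 1.56 in wild-type brain (departure -1.41 ± 0.18, adjusted p = 0.000761), a class it kept in 8 of the 12 fits that leave out an array. Of 23 genes of glycolysis 0 departed upwards and 6 downwards, with a median of -0.57. Aldoa, the aldolase of muscle and brain, had -1.29, -0.97, -1.19 and -1.36 in heterozygous brain, 0.93, -0.73, -0.57 and -1.02 in null brain and 0.60, 0.56, 0.16 and 0.23 in wild-type brain. Its heterozygous arrays overlapped the null but not the wild-type arrays, and null replicate 1 was highest of all.

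Of 10 genes of synaptic vesicles 0 departed upwards and 4 downwards (Syn1, Sv2a, Syt11 and Napa), with a median of -0.78. Syn1 fell below both homozygotes, whereas Sv2a, a glycoprotein of the vesicle, had 1.69, 1.82, 1.77 and 1.61 in heterozygous brain, 3.80, 2.05, 1.62 and 1.67 in null brain and 3.36, 3.18 and 3.72 in wild-type brain. Null replicate 1 alone reached the wild-type values of Sv2a. Of 10 neuron markers none departed, with a median of -0.10, which was 0.12 with cyclic loess. Of 43 proteasome genes 0 departed upwards and 5 downwards, with a median of -0.36. Of 9 genes of cholesterol synthesis 0 departed upwards and 2 downwards, Fdft1, or squalene synthase, and Msmo1, a sterol oxidase, with a median of -0.69. Of 73 genes of the respiratory chain 1 departed upwards and 6 downwards (median -0.25), of 63 cytosolic ribosomal proteins 0 and 6 (median -0.23), and of 50 translation factors 0 and 6 (median -0.30). The lower counts of the first 2 of these lists are near the 6.94% over all transcripts. With values as deposited, the 3 lists had 1, 3 and 2 lower calls and the proteasome 2, beside 585 over all transcripts. With quantile scaling these were 5, 7, 6 and 5, beside 960. Differences between lists were not tested.

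These lists moved with single arrays, and markers of other tissues are set beside them here. The array medians of the proteasome list ran from 0.05 to 0.21 in heterozygous, -0.28 to 0.47 in null and 0.50 to 1.21 in wild-type brain, with null replicate 1 and wild-type replicate 1 the highest of their groups. With both of these arrays left out, the medians were -0.25 for chaperones with 16 lower calls and -0.52 for glycolysis with 9. They were -0.65 for synaptic vesicles with 5, -0.22 for the proteasome with 6 and -0.08 for the respiratory chain with 9. Over all transcripts, that fit gave 1338 lower calls of 15085. In 7 red blood cell markers the medians ran from -2.37 to -2.01 in heterozygous, -2.76 to -1.32 in null and -1.87 to -0.73 in wild-type brain. Of these 7, 3 departed downwards (Alas2, Hba-x and Slc4a1), beside 6.94% of all transcripts called lower. The median departure of 14 markers of the adult reference tissues was -0.43, which was 0.13 with quantile scaling and 0.33 with cyclic loess. The part of these tissues in the result was not tested.

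Astrocyte markers departed downwards in 2 of 11 (Ndrg2 and Sparcl1) and upwards in 0, with a median of -0.32, beside 4.79% of all transcripts called higher and 6.94% called lower. Ndrg2, a protein of astrocyte processes, had -1.31, -1.12, -1.11 and -1.15 in heterozygous brain, 0.91, -0.74, -0.39 and -1.01 in null brain and 1.02, 1.14, 0.77 and 0.35 in wild-type brain, with no overlap between heterozygous arrays and any other. Microglia markers split, with Ctss and Itgam upwards and C1qa and C1qb downwards among 10. Ctss, the lysosomal protease cathepsin S, had -1.43, -1.45, 0.52 and -1.17 in heterozygous brain, -2.98, -2.53, -3.62 and -2.15 in null brain and -1.96, -3.08, -3.44 and -2.12 in wild-type brain, with heterozygous replicate 3 far above the rest and no overlap. C1qb, a chain of the complement starter C1q, had -1.49, -1.46, -1.81 and -1.53 in heterozygous brain, -0.89, -1.01, -1.93 and -1.47 in null brain and -0.41, -0.07, -0.30 and -0.63 in wild-type brain, and was alike to null, a class it kept in 2 of the 12 fits that leave out an array.

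Axon guidance and extracellular matrix genes had medians above the midpoint. Of 39 axon guidance genes 3 departed upwards (Ntn1, Epha8 and Plxnb3) and 1 downwards (Efnb2), beside 4.79% of all transcripts called higher and 6.94% called lower, so the upward count is near the share over all transcripts. The spot of Efnb2 lay in a window of table rows out of step. The median was 0.20. Ntn1, the guidance cue netrin 1, had 0.66, 0.60, 1.02 and 0.89 in heterozygous brain, -0.12, 0.84, 0.90 and -0.71 in null brain and -0.91, -1.56, -1.70 and -0.81 in wild-type brain. The null arrays fell into a high and a low pair, the high pair among the heterozygous values (departure 1.30 ± 0.28, adjusted p = 0.0119). Of 54 matrix genes 7 departed upwards and 4 downwards, with a median of 0.17. Col6a6, a chain of collagen VI, had 0.64, 0.45, 1.08 and 0.37 in heterozygous brain, -0.60, -0.76, -0.62 and -0.75 in null brain and -2.12, -0.53, -1.04 and -0.47 in wild-type brain (departure 1.50 ± 0.26, adjusted p = 0.00411). Timp2, an inhibitor of matrix proteases, departed the other way, at 1.04, 0.83, 0.77 and 0.92 in heterozygous brain, 2.39, 1.35, 1.19 and 1.12 in null brain and 2.08, 2.58, 2.72 and 1.64 in wild-type brain. The medians of both lists stayed above 0 under the 3 other scalings and without either or both of the arrays that stood apart.

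**Figure D5:**
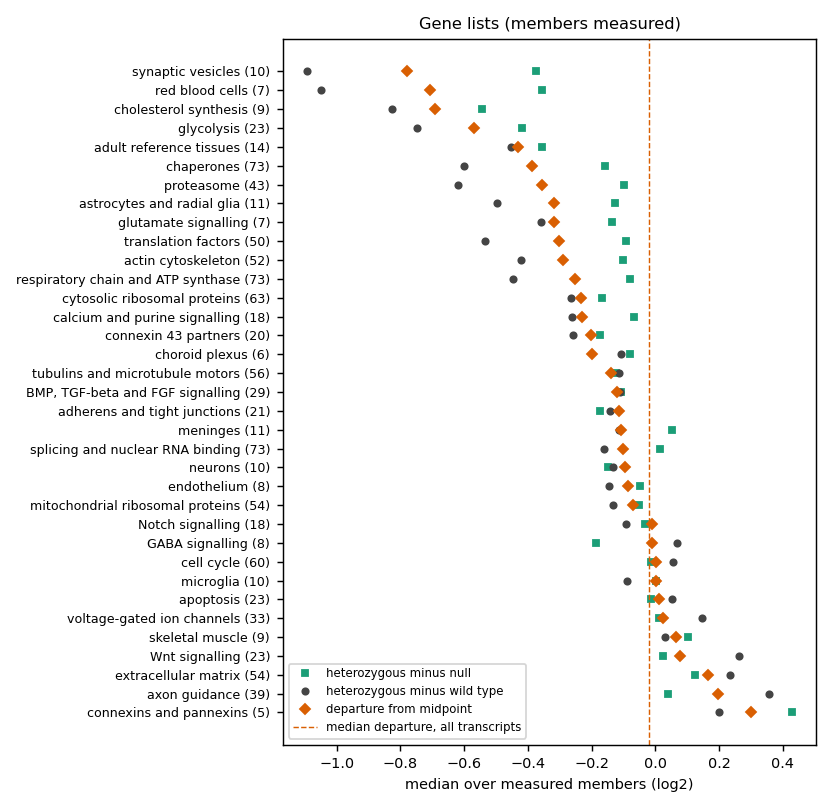
Median over the measured members of each gene list with at least 5 (number in brackets) of heterozygous minus null, heterozygous minus wild type and the departure from the midpoint, all in log2 units, with the median departure of all transcripts as a dashed line at -0.02. Among the lists plotted, synaptic vesicles have the lowest median departure, at -0.78, and connexins and pannexins the highest, at 0.30.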

How the data were processed

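The submitters deposited a table of log ratios, 1 value per spot and array, taken here as log2. The authors' normalization within an array, the numerator and the log base are not given in the sources used here, and no intensities were used, so signal over background is unknown. Of 28704 spots, 18511 were given 1 symbol (18267 through the gene identifier, 244 as the platform gives it), 937 list several and 9256 none. Arrays were centred on their medians (-0.13 to 0.28 before), spots with at least 3 of 4 values in each genotype were kept (21138), and spots of a gene were averaged.

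Group means of the 12 arrays were fitted with limma 3.58.1 (lmFit, eBayes, 2-sided) in R 4.3.3, with Benjamini-Hochberg adjustment over all 15085 transcripts and a threshold of 0.05. Missing values were left missing. In 28 of 574 windows of 50 table rows an array's median correlation with the others was under 0.3. Genes with a spot there (617) were not named by rank. The rule for named genes took Gja1 and every connexin or pannexin, the 12 extreme genes per direction without overlap, ranked by the smaller difference from the homozygotes, up to 6 genes alike to each homozygote and 4 dose-following genes per direction, and up to 2 departing members per list and direction. This gave 114 genes, not all of which are described. The members and the 37 lists were chosen with earlier results of these data known. Same-numbered arrays of different genotypes had correlations of deviations from -0.09 to 0.15, so numbers do not pair the samples. With 4 arrays per genotype the number of arrays limits the precision. Alternatives covered scaling, filters, spot averaging, array weights, a replicate block, the Cx32 null arrays in the fit, blocks out of step and each array left out.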

Additional observations from a re-analysis of the deposited data

Results flagged for a closer look

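Among 300 groups of 4 arrays over the 114 named genes, 20 held an array set apart from the other 3 by a gap that takes most of the group's range. Chance sets apart about 1 in 20 groups. Each value in brackets is that gap as a share of the range.

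On heterozygous arrays these were replicate 3 for Ctss (0.857) and Klf9 (0.937) and replicate 4 for Ednrb (0.873) and Meioc (0.969). On Cx43 null arrays, replicate 1 stood apart for Eef2 (0.912), Itgb5 (0.831), Psme4 (0.838), Rps14 (0.835), Syn1 (0.874) and Ywhab (0.907), replicate 3 for Actn2 (0.831) and Tgfbr2 (0.848), and replicate 4 for Ccdc184 (0.852), Igf2 (0.856) and Lamb2 (0.839). On wild-type arrays, replicate 1 stood apart for Casp1 (0.970), Panx1 (0.829), Plg (0.870) and Rpl4 (0.967), and replicate 4 for Scn2b (0.861). Replicate 1 of the null and of the wild-type arrays, which also stood apart over all transcripts, accounts for 10 of the 20.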

How the results depend on the processing

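The departure count was 1151 where all 4 values in each genotype were required, 2683 with each spot on its own and 2982 with array weights per genotype. Null against wild type gave 479 with quantile scaling, 640 spot by spot, 1409 with all 16 arrays and 11 with array weights. Transcripts extreme upwards numbered 163 with values as deposited, 37 with all 4 values and 196 with array weights, and those extreme downwards 31, 32 and 180, and 109 with all 16 arrays. Transcripts alike to null numbered 58 with all 4 values, 169 spot by spot, 361 with all 16 arrays and 7 with array weights, and those alike to wild type 1 with cyclic loess, 1 with array weights and 1 where a fold and no overlap of the homozygotes replaced the adjusted p. Dose-following transcripts numbered 26 with quantile scaling, 7 with all 4 values, 31 with all 16 arrays and 0 with array weights. With a replicate block, which the labels' numbers do not justify, since 3 of 12 arrays correlated best with their own number, null against wild type gave 573, extreme transcripts 48 upwards and 39 downwards, alike to null 163, alike to wild type 1 and dose-following 23. With wild-type replicate 1 and Cx43 null replicate 1 both left out, an alternative chosen after seeing the data, these were 1496 for null against wild type, 548 alike to null, 7 alike to wild type and 72 dose-following.

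Leaving out each array in turn gave 792 to 2523 departures, 2 to 1896 differences between null and wild type, 25 to 186 transcripts extreme upwards, 20 to 147 downwards, 1 to 499 alike to null, 0 to 4 alike to wild type and 0 to 46 dose-following. Of 106 named genes with a called departure, 52 passed in every alternative that gave a value. Over all pairs of a named gene and an alternative, 287 of 2585 no longer passed and 1 reversed: Igf2 had -0.18 where each of its spots needed all 4 values. The causes were not tested.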

Other observations

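Other genes named by list rank described groups not yet given. Of 60 cell cycle genes 2 departed upwards (E2f7 and Plk1) and 2 downwards (Ccnd3 and Mcm3), beside 4.79% of all transcripts called higher and 6.94% called lower, so neither count exceeds the share over all transcripts. Plk1, a kinase of mitosis, was extreme, with 0.11, 0.16, 0.62 and 0.05 in heterozygous brain, -0.69, -0.57, -0.80 and -0.59 in null brain and -1.12, -0.69, -0.64 and -0.52 in wild-type brain. Otx2, a homeobox factor of forebrain and choroid plexus, was extreme as well, with 2.40, 2.57, 2.06 and 2.74 in heterozygous brain, 0.87, 1.64, 1.42 and 1.52 in null brain and 0.19, 1.02, 0.84 and 0.88 in wild-type brain. Plk1 and Otx2 each kept the extreme class in 3 of the 12 fits that leave out an array, and both lost it without any single one of the Cx43 null arrays. Otx2 also lost it with quantile scaling and with cyclic loess. Aqp1, the water channel of choroid plexus, departed the other way, at -2.39, -2.08, -2.67 and -2.11 in heterozygous brain, -0.83, -1.75, -1.55 and -1.44 in null brain and -0.41, -0.36, -0.62 and -0.76 in wild-type brain. No member of the 18 Notch genes departed. Of 33 voltage-gated channel genes 1 departed upwards and 4 downwards, among them Scn2b, a sodium channel subunit, with a departure of -1.18 ± 0.18 (limma, adjusted p = 0.00225).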
